A study of Mus musculus with 8 samples.

Results

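The miR-15/16 family of cell cycle regulators was followed in KH2-DGCR8 cells, a line of mouse embryonic stem cells, as they differentiated in embryoid bodies (EBs), the floating aggregates in which such cells leave pluripotency. The family was taken as every row of the deposited small RNA table named mmu-miR-15a, mmu-miR-15b, mmu-miR-16 or mmu-miR-195a, with any copy number and arm (the species prefix mmu is left out from here on), which gave 9 of 1099 mature miRNAs. There were 4 libraries with doxycycline (Dox), from days 0, 1, 2 and 4, and 4 libraries without Dox from the same days, so each condition was a single library. All 8 came from the KH2-DGCR8 genotype, in which Dox is used to raise DGCR8, a subunit of the nuclear complex that releases miRNA hairpins from their primary transcripts. The comparison with Dox bears on how extra DGCR8 affects mature miRNAs. No library came from cells given Dox without the DGCR8 transgene, so an effect of Dox itself cannot be told apart from one of DGCR8. The duration of Dox, the promoter of the transgene and the number of clones are not stated in the sources at hand. Small RNA libraries do not read Dgcr8 messenger RNA, so induction was not checked.

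A miRNA hairpin yields a 5p and a 3p arm, and the arm loaded into Argonaute represses messenger RNAs that pair with its seed, the bases near its 5′ end. The 5p arms of the miR-15/16 family share a seed and are known to repress G1 cyclins, their kinases and the survival factor BCL2, for which they are known as brakes on the cell cycle. Mouse stem cells have a short G1 phase, which lengthens as they differentiate.

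The mature sequences are given here because they show which arms carry the shared seed and which rows can be told apart. They come from RefSeq (GRCm38.p6, the patch release of mm10), where all 9 rows matched, and capitals mark the seed at bases 2 to 8. The 4 member 5p arms have the same seed, and the 5 member 3p arms have other seeds.
miR-16-5p: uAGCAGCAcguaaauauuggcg
miR-15a-5p: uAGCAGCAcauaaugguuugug
miR-15b-5p: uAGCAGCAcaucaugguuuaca
miR-195a-5p: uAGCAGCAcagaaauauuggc
miR-16-1-3p: cCAGUAUUgacugugcugcuga
miR-16-2-3p: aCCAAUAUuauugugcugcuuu
miR-15a-3p: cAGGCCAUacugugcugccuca
miR-15b-3p: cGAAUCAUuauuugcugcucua
miR-195a-3p: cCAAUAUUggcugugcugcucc

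miR-195a-5p, at 21 bases against 22, differs from miR-16-5p by G10A and U11G, counted from the 5′ end with the base of miR-16-5p first. It is the closest pair among the members, and how reads with mismatches were assigned between these rows is not known. miR-15a-5p and miR-15b-5p differ from each other at 4 bases. No other row of the table with a RefSeq sequence came within 2 mismatches of a member.

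The genes lie at 3 loci (mm10). Mir15a and Mir16-1 are on the minus strand of chromosome 14, with mature arms between 61631894 and 61632096, in an intron of the long non-coding RNA gene Dleu2. Mir15b and Mir16-2 are on the plus strand of chromosome 3, with mature arms between 69009775 and 69009981, in an intron of Smc4, which encodes a condensin subunit. Mir195a is on the plus strand of chromosome 11, with its 5p arm from 70235062 to 70235082, beside Mir497, and no host gene contained it in GENCODE M21. The 2 miR-16 hairpins are shown because they share 1 mature 5p sequence, so that only their 3p arms tell the loci apart. Mir16-1 is at chr14:61631880-61631972 (minus strand) and Mir16-2 at chr3:69009902-69009996 (plus strand), and capitals mark the mature arms.
Mir16-1: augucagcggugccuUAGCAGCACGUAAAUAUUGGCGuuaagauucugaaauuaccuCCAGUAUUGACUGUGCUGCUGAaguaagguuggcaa
Mir16-2: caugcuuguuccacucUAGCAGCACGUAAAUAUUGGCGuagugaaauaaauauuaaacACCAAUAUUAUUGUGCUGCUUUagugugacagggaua

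Values are the deposited scores, read as RPM (miRNA reads scaled to 1 total) and rounded to whole numbers. The steps between low values implied 362483 to 541342 reads per library, and 3 reads correspond to between 5.54 and 8.28 RPM. Intervals below are exact 95% intervals on the implied reads. They cover counting error only, and reads copied by PCR from 1 molecule are not independent. The miR-290 cluster, the defining miRNAs of mouse stem cells, held 40.5% of the day 0 library with Dox and 46.1% of that without Dox, and at day 4 it held 22.9% with Dox and 16.3% without. The summed level of the 7 fibroblast markers in the table, none of them at 0 in every library, was 19543 to 58600 RPM with Dox and 13703 to 40870 RPM without, highest at day 4 in both. Most of that sum was miR-21a-5p, at 53151 RPM with Dox and 36898 RPM without at day 4. Of the 7, miR-21a-5p and miR-29a-3p rose against day 0 at day 4, where 21.9% of all miRNAs rose. miR-145a-5p fell (limma adjusted p = 0.0477), where 3.81% of all miRNAs fell, but limma-voom called 0 of the 7 lower. The median log2 change of the 7 was -0.39 (-0.99 with median-of-ratios scaling). The others were miR-22-3p, miR-143-3p, miR-199a-5p and miR-199a-3p. The summed level of the 6 blood and endothelium markers in the table was 1203 to 2016 RPM with Dox and 1151 to 2088 RPM without. The part of these shifts in the results below was not tested. In bulk libraries, fewer cells of a type and less RNA per cell cannot be told apart.

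The family held a small part of the miRNA reads. Its 9 rows summed to 4143, 3139, 3557 and 3888 RPM with Dox at days 0, 1, 2 and 4, and to 3124, 3185, 3898 and 3369 RPM without Dox. The highest sum was 0.414% of a library, at day 0 with Dox. The sums with and without Dox overlapped. Most of each sum was in the 4 seed-bearing 5p arms, which summed to between 2637 and 3974 RPM with Dox and between 2716 and 3383 RPM without.

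miR-16-5p, the mature 5p arm shared by both miR-16 hairpins, was the most abundant member, rank 66 of 1099 by mean. It stood at 2905, 1613, 2257 and 2679 RPM with Dox at days 0, 1, 2 and 4, and at 2036, 1779, 2536 and 2058 RPM without Dox. It was the lowest at day 1 in both treatments. It made up 61.2% to 75.7% of the reads of the 4 member 5p arms. Levels of different miRNAs also reflect how well each is captured in a small RNA library, so the order of members is that of the libraries.

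miR-15b-5p came next, at 733, 740, 496 and 617 RPM with Dox and 579, 663, 384 and 737 RPM without. It was lowest at day 2 in both treatments. Its range did not overlap that of miR-16-5p or that of the next member, miR-16-1-3p. miR-195a-5p stood at 145, 187, 211 and 140 RPM with Dox and 155, 149, 297 and 94 RPM without, with its highest value at day 2 in both treatments and its lowest at day 4. miR-15a-5p stood at 191, 97, 170 and 103 RPM with Dox and 148, 125, 166 and 99 RPM without, lower at days 1 and 4 than at days 0 and 2 in both.

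The middle of the order was not separated. miR-16-1-3p, with a mean of 238 RPM, was above miR-195a-5p in 5 of 8 libraries, miR-195a-5p above miR-15a-5p in 6 of 8, and miR-15a-5p above miR-15b-3p in 6 of 8. The remaining 3p arms, miR-16-2-3p, miR-15a-3p and miR-195a-3p, were at most 33 RPM and rested on 1 to 14 reads in a library. Their ranges overlapped, and values near 3 reads are imprecise.

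**Figure D1:**
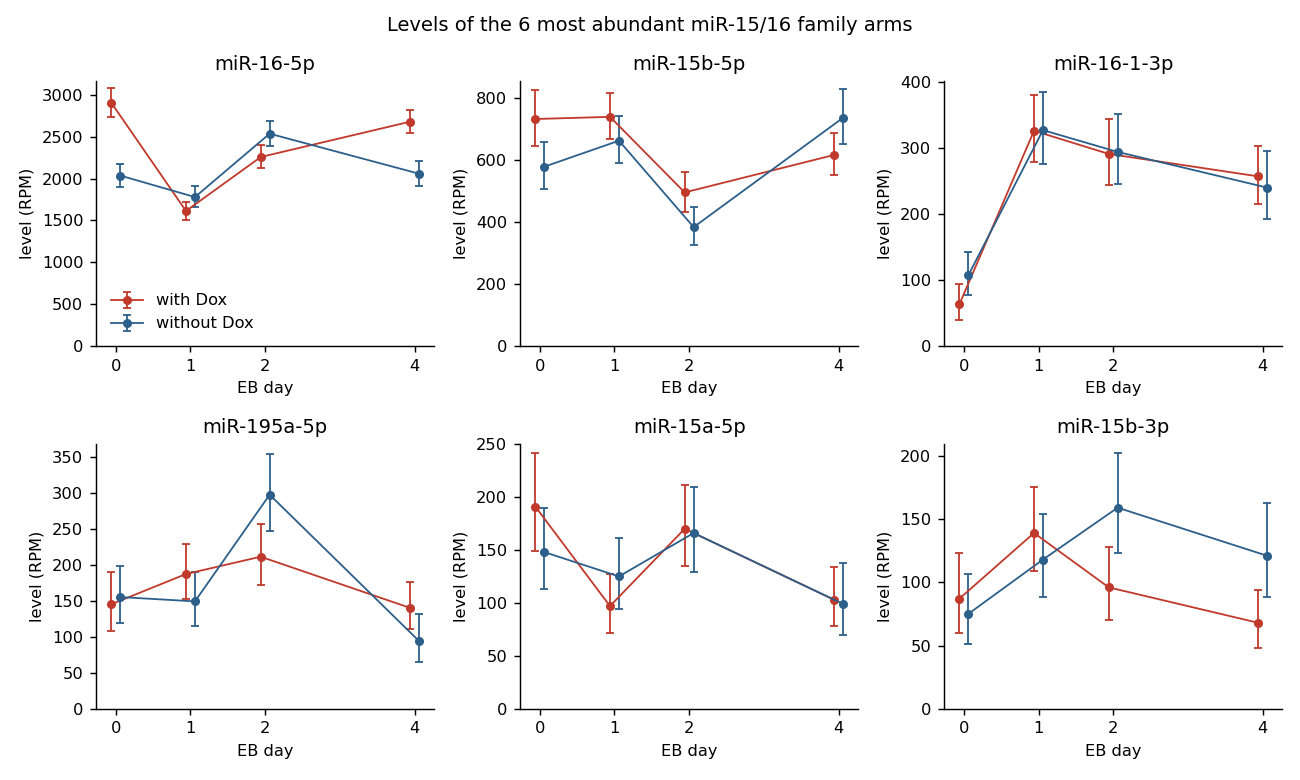
Level in RPM (y axes, each from 0) of the 6 most abundant family arms at EB days 0, 1, 2 and 4 (x axes), with Dox in red and without Dox in blue. Each point is 1 library and bars are exact 95% Poisson intervals on the implied reads; miR-16-1-3p lies at 63 and 107 RPM at day 0 and at 240 RPM or above in the 6 later libraries.

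The clearest change in the family was a gain of miR-16-1-3p, the 3p arm of the hairpin within Dleu2, between day 0 and day 1. It stood at 63, 326, 291 and 257 RPM with Dox at days 0, 1, 2 and 4, and at 107, 327, 294 and 240 RPM without Dox. Both day 0 libraries were below all 6 later ones. Against day 0 it rose by 1.98 on the log2 scale at day 1 (SE 0.38, limma adjusted p = 2.64e-05), by 1.82 at day 2 (SE 0.38, adjusted p = 4.85e-05) and by 1.58 at day 4 (SE 0.38, adjusted p = 0.000238). These changes are on the log2(value + 1) scale, and the first is a fold of 3.94. The 3 comparisons share the day 0 libraries. With Dox, its level at day 1 was 5.19 times that at day 0 (95% interval 3.35 to 8.41), and without Dox 3.06 times (2.17 to 4.40).

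This was 1 of the 9 family rows called at each later day. Over all 839 miRNAs tested, 8.1% were called at day 1, 17.3% at day 2 and 25.7% at day 4, so the family's count was near the background at day 1 and below it later. The median change of all miRNAs was 0.37 at day 1, 0.48 at day 2 and 0.56 at day 4, and relative to these medians the changes of miR-16-1-3p were 1.61, 1.34 and 1.02. The call was lost at day 1 without the Dox library of that day (adjusted p = 0.0576), at day 2 without the no-Dox library of that day (adjusted p = 0.0724) and at day 4 without the day 0 library with Dox (adjusted p = 0.0815). With no filter on low values it was lost at all 3 days (adjusted p = 0.118, 0.109 and 0.0790).

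None of the seed-bearing 5p arms was called higher against day 0 at any later day in limma, in limma-voom or under the other scalings. For miR-16-5p the log2 change from day 0 was -0.52 at day 1 (SE 0.27, adjusted p = 0.260), -0.02 at day 2 (SE 0.27, adjusted p = 1.00) and -0.05 at day 4 (SE 0.27, adjusted p = 0.947). The median change of the 4 member 5p arms was -0.21, -0.01 and -0.22 at days 1, 2 and 4, below the median of all miRNAs at each day. miR-15a-5p, cut from the same Dleu2 intron as miR-16-1-3p, had a log2 change of -0.61 at day 1 (SE 0.41, adjusted p = 0.408) and -0.73 at day 4 (SE 0.41, adjusted p = 0.210). miR-15b-5p had its lowest change at day 2, at -0.58 (SE 0.31, adjusted p = 0.213), when miR-195a-5p had its highest, at 0.74 (SE 0.40, adjusted p = 0.208).

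How the 5p arms stood against day 0 depended on the scaling. With median-of-ratios scaling, which brought the median change of all miRNAs to between 0.01 and 0.03, a 5p arm was called lower on each day. These were miR-16-5p at day 1 (log2 change -0.90, adjusted p = 0.0207), miR-15b-5p at day 2 (-1.05, adjusted p = 0.0112) and miR-15a-5p at day 4 (-1.33, adjusted p = 0.00962). With the miR-290 cluster left out of the library totals, miR-15a-5p was also called lower at day 4 (-1.23, adjusted p = 0.0199). miR-16-1-3p remained called higher on each day under both scalings, with log2 changes of 0.99 to 1.91. Of all miRNAs, 8.22%, 12.2% and 19.3% were called with this scaling at days 1, 2 and 4. Without the miR-290 cluster in the totals 7.51%, 13.7% and 19.5% were called.

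**Figure D2:**
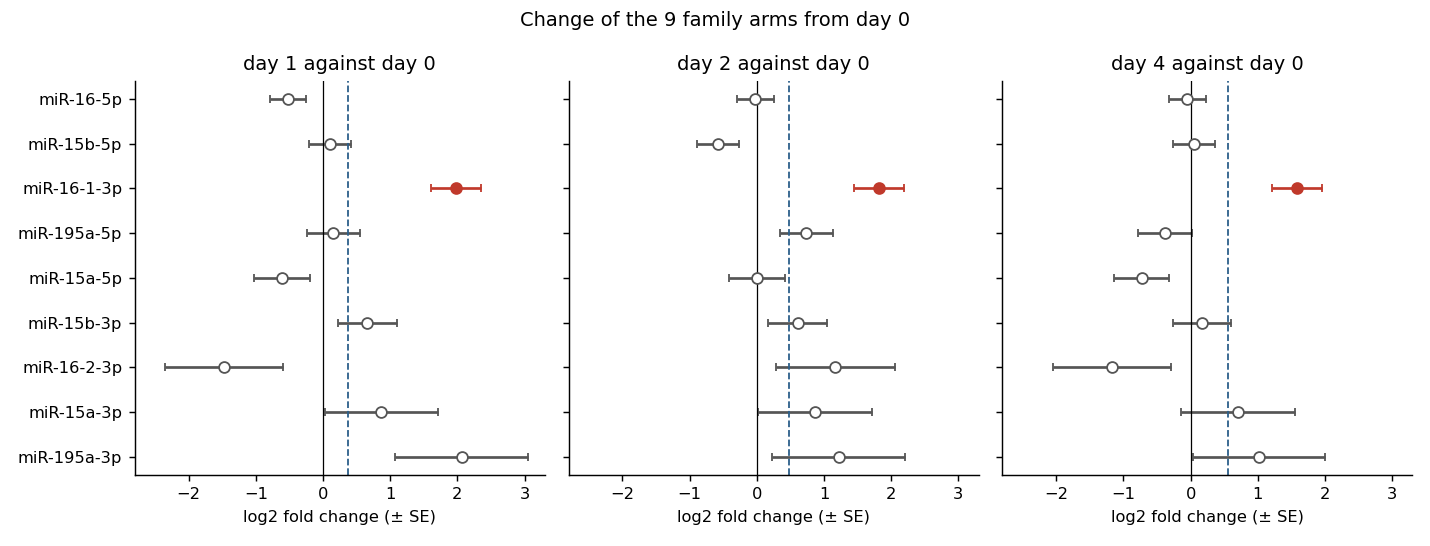
Log2 fold change from day 0 (x axes, on log2 of RPM + 1) of the 9 family arms at days 1, 2 and 4, with bars of ± 1 SE from limma over all 8 libraries; filled red points passed an adjusted p of 0.05 and the dashed line is the median of all 839 miRNAs. miR-16-1-3p is the filled point in each panel, at 1.98, 1.82 and 1.58.

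Ratios between arms within 1 library do not depend on the scaling of the libraries. The 3p reads of both miR-16 copies were 2.39% of all miR-16 reads at day 0 with Dox (95% interval 1.57 to 3.48), then 17.1%, 12.2% and 8.98% at days 1, 2 and 4. Without Dox they were 5.72% at day 0 (4.29 to 7.46), then 15.6%, 11.4% and 10.6%. The intervals of both day 0 libraries lay below those of all 6 later ones, and the share was highest at day 1 in both treatments. Of these 3p reads, miR-16-1-3p was 86.3% to 99.3% in every library, while miR-16-2-3p, from the hairpin within Smc4, had at most 14 reads. How much of the shared miR-16-5p came from each hairpin cannot be told apart from its sequence.

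The change in the miR-16 arms was set beside that of all 118 hairpins whose 2 arms each averaged at least 10 reads, a comparison chosen after the values were seen. miR-16-5p pools the reads of both miR-16 hairpins, so the ratio of miR-16-1-3p to it is not that of a single hairpin. A shift between these hairpins cannot be told apart from a shift between arms. The log2 ratio of miR-16-1-3p to miR-16-5p was higher at day 2 than at day 0 by 2.55 with Dox and by 1.13 without, where the median over hairpins was 0.001 with Dox and -0.15 without. Counting miR-16-1-3p itself, 1, 4 and 7 of the 118 were raised at least as much at days 1, 2 and 4 with Dox, and 10, 14 and 12 without Dox. Its smallest rise over the 6 later libraries was 1.13, at day 2 without Dox, and 3 of 118 hairpins had a smallest rise of at least that size. The others were miR-185-3p and miR-331-3p.

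At the other hairpins the 3p arm was also a minority. miR-15b-3p made up 10.7%, 15.8%, 16.2% and 9.97% of miR-15b reads with Dox at days 0, 1, 2 and 4, and 11.5%, 15.1%, 29.3% and 14.1% without Dox. The day 2 library without Dox stood above the others, where the 95% intervals were 12.1 to 21.1 with Dox and 23.5 to 35.6 without. The 3p share of miR-15a was 3.17% to 15.3% and that of miR-195a was 1.54% to 8.22%. Both rested on at most 9 reads of the 3p arm in a library, and their lowest shares were at day 0 without Dox.

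**Figure D3:**
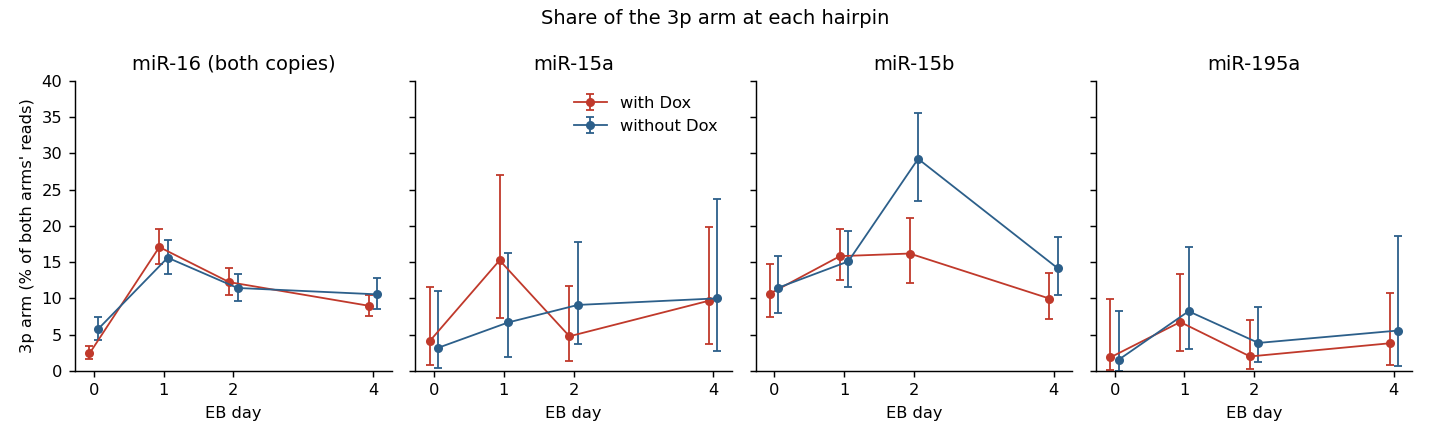
Share of the 3p arm among the implied reads of both arms (y axis, percent) at EB days 0, 1, 2 and 4 (x axes) for miR-16, with the 3p arms of both copies added, and for miR-15a, miR-15b and miR-195a. Red is with Dox and blue without, each point is 1 library and bars are exact 95% binomial intervals; the miR-16 share is 2.39% and 5.72% at day 0 and 8.98% or above later.

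The Dleu2 and Smc4 loci were also set against each other through their miR-15 arms, which differ in sequence. miR-15a-5p was 20.7%, 11.5%, 25.6% and 14.4% of the summed reads of miR-15a-5p and miR-15b-5p with Dox at days 0, 1, 2 and 4, and 20.3%, 15.8%, 30.2% and 11.9% without Dox. In both treatments the share was higher at days 0 and 2 than at days 1 and 4. The intervals of day 2 (20.8 to 30.8 with Dox and 24.3 to 36.5 without) lay above those of day 4, which reached 18.2 with Dox and 16.1 without. The miR-16 3p arms of the same loci had the opposite order of days. miR-16-1-3p was 88.5%, 98.3%, 92.6% and 97.2% of their reads with Dox, and 86.3%, 99.3%, 89.9% and 98.9% without. The rest, miR-16-2-3p, had at most 14 reads in a library. Whether either share follows the output of the loci was not tested.

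Dox was compared with no Dox over the 4 days to ask whether the family moved with the inducer of DGCR8. None of the 9 rows passed (limma, adjusted p from 0.861 to 1.00), none had an unadjusted p under 0.05, and limma-voom on the implied reads also called 0. Of all 839 miRNAs tested, 1.91% were called and 88 had an unadjusted p under 0.05. The family's median log2 change was 0.08, against 0.03 for all miRNAs tested. For miR-16-5p the change was 0.15 (SE 0.19) and for miR-15b-5p 0.15 (SE 0.22). For miR-195a-5p it was 0.08 (SE 0.28), for miR-15a-5p 0.02 (SE 0.29), for miR-16-1-3p -0.17 (SE 0.27) and for miR-15b-3p -0.27 (SE 0.31).

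Within single days some ratios left 1 beyond counting error, in both directions. The interval excluded 1 for 3, 0, 4 and 3 of the 9 members at days 0, 1, 2 and 4. The share over all miRNAs was not counted, so these ratios are not set against a background. miR-16-5p was higher with Dox at day 0, by 1.43 times (95% interval 1.30 to 1.56), and at day 4, by 1.30 times (1.19 to 1.42), and stood at 0.890 times (0.817 to 0.970) at day 2. miR-15b-5p stood at 1.26 times (1.06 to 1.51) at day 0, 1.29 times (1.05 to 1.59) at day 2 and 0.838 times (0.711 to 0.988) at day 4. miR-195a-5p stood at 0.710 times (0.540 to 0.932) at day 2, and its intervals on the other days included 1. No member differed in the same direction on all 4 days. With 1 library per condition these ratios have no replicate check, and the difference between cultures is not known.

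miR-16-1-3p was at 63 RPM with Dox and 107 RPM without at day 0, on 23 and 44 reads, a ratio of 0.589 (95% interval 0.340 to 0.997). On the later days its ratio was 0.999, 0.991 and 1.07. miR-15b-3p had ratios of 1.16 and 1.18 at days 0 and 1, and of 0.602 (0.403 to 0.892) and 0.563 (0.354 to 0.892) at days 2 and 4, where it stood at 96 and 68 RPM with Dox and at 159 and 121 RPM without. The change of its Dox log2 ratio per day was -0.29 (SE 0.20, limma adjusted p = 0.630). In that test of a changing Dox effect 0 of the 9 rows passed, none had an unadjusted p under 0.05, and limma-voom also called 0. Of all 839 miRNAs, 0.954% were called and 95 had an unadjusted p under 0.05 in limma.

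**Figure D4:**
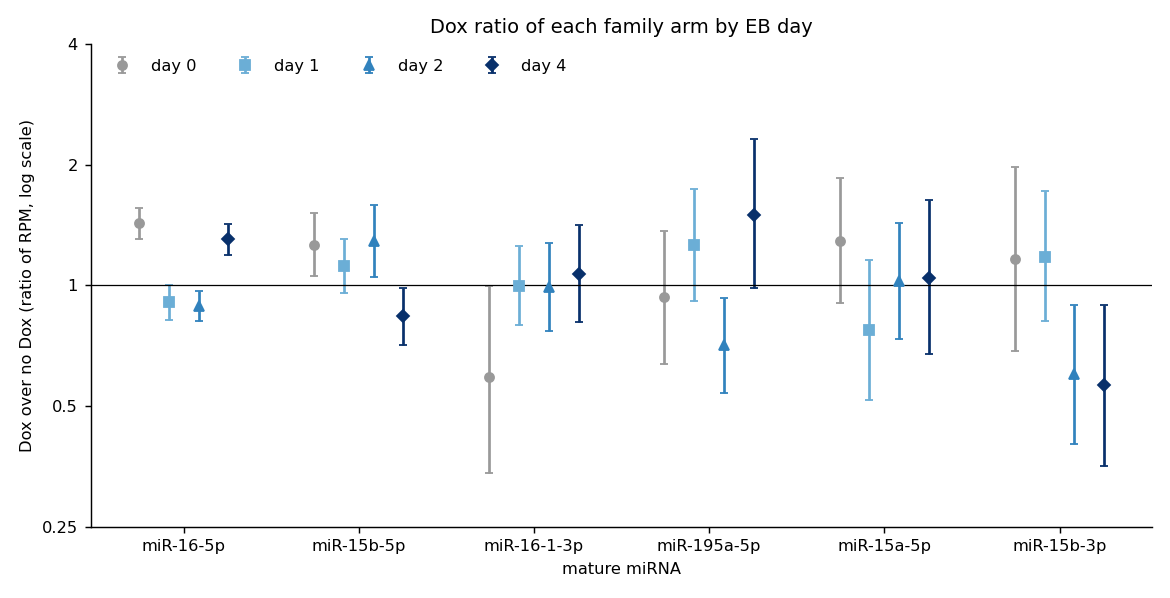
Ratio of RPM with Dox to RPM without Dox (y axis, log scale) for the 6 most abundant family arms (x axis), with 1 symbol per EB day and bars of 95% conditional binomial intervals. The ratios lie on both sides of 1, for example at 1.43 for miR-16-5p at day 0 and 0.563 for miR-15b-3p at day 4.

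Correlations between members across libraries were of both signs. Over the 8 libraries, which share 1 scaling and fall on 4 days, Pearson's r of log2(RPM + 1) was 0.55 between miR-16-5p and miR-15a-5p and -0.80 between miR-15b-5p and miR-195a-5p. Between miR-15a-5p and miR-16-1-3p of the same Dleu2 intron it was -0.53. The 3p arms miR-16-1-3p and miR-15b-3p had r of 0.53. Among the 265 other miRNAs averaging 100 RPM or more, the most alike to miR-16-5p was miR-32-5p (r 0.88), at 2668, 1466, 1816 and 2551 RPM with Dox and 1462, 1661, 2130 and 1457 RPM without. The most alike to miR-15b-5p was miR-27b-3p (r 0.83), to miR-16-1-3p miR-185-5p (r 0.88), to miR-15a-5p miR-295-3p (r 0.83) and to miR-15b-3p miR-106b-3p (r 0.90). For miR-195a-5p it was the identically valued pair miR-669a-5p and miR-669p-5p (r 0.94).

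Other miRNAs with the same or a similar seed were lower than the leading members, and are shown with their sequences because they could add to the same seed pool. miR-497a-5p, encoded beside miR-195a, and miR-322-5p of the X chromosome carry the family seed, and miR-503-5p, encoded beside miR-322, differs from it at the last seed base (A8G).
miR-497a-5p: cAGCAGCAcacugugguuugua
miR-322-5p: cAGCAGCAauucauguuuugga
miR-503-5p: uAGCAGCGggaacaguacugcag

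miR-497a-5p stood at 191, 174, 213 and 139 RPM with Dox and 177, 216, 240 and 154 RPM without, a level like that of miR-195a-5p. miR-503-5p lay between 30 and 52 RPM with Dox and between 29 and 91 RPM without. miR-322-5p stood at 19, 35, 43 and 57 RPM with Dox and 46, 82, 14 and 108 RPM without, on 6 to 39 reads. It rose by 1.37 on the log2 scale at day 4 (SE 0.53, limma adjusted p = 0.0400), which was not called with median-of-ratios scaling (adjusted p = 0.322) or outside the miR-290 cluster (adjusted p = 0.283), with no filter (adjusted p = 0.469) or in limma-voom (adjusted p = 0.0685). With Dox, the 6 rows with the family seed summed to 4184, 2846, 3390 and 3735 RPM at days 0, 1, 2 and 4, and without Dox to 3141, 3014, 3637 and 3250 RPM.

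The other miRNAs of the G1 to S transition were counted for comparison. Of 16 tested miRNAs known to hold it back, such as the let-7 family and miR-34, limma called 0 for Dox. Their median was -0.04, and 2 had an unadjusted p under 0.05, where 88 of all 839 miRNAs did. Limma-voom called 1 of the 16 lower (miR-449a-5p), where it called 8 of all 839 lower. Against day 0, 6 of the 16 rose at day 1, 7 at day 2 and 3 at day 4, where 7.03%, 15.3% and 21.9% of all miRNAs rose. Those at day 1 were let-7a, let-7b, let-7c, let-7e, let-7f and let-7g, all of the let-7 family and so not independent. Only miR-98-5p (0 to 22 RPM) joined them at day 2. Those at day 4 were let-7e-5p, miR-34b-5p and miR-34c-5p. No miR-34, miR-449a, miR-26 or miR-24 row was called at days 1 and 2, and miR-26a-5p, miR-26b-5p and miR-24-3p had negative changes. let-7e-5p rose at all 3 days, by 2.23, 1.72 and 1.19. In limma-voom 5, 7 and 3 of the 16 rose at days 1, 2 and 4, where 45, 105 and 174 of all 839 miRNAs did. With no filter 0 of the 16 were called at any of these days. With median-of-ratios scaling 4 were higher at day 1, 2 were higher and 2 lower at day 2, and 1 was higher and 1 lower at day 4. Of all miRNAs under that scaling, 4.17%, 6.08% and 12% were higher and 4.05%, 6.08% and 7.27% lower on these days.

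Of 16 miRNAs known to promote the transition, limma and limma-voom each called 0 for Dox, with a median of -0.21. Of these, 0 and 1 had an unadjusted p under 0.05, where 88 and 85 of all 839 miRNAs did. The Dox effect did change with day for 4 of the 16. They fell with Dox relative to no Dox as the days went on, where 0.715% of all miRNAs did so. These were miR-302a-3p, miR-302b-3p, miR-302c-3p and miR-302d-3p, which mark the epiblast stage. miR-302b-3p stood at 145, 207, 300 and 914 RPM with Dox at days 0, 1, 2 and 4, and at 126, 200, 439 and 12939 RPM without Dox (change in the Dox log2 ratio of -1.04 per day, SE 0.15, limma adjusted p = 3.39e-09). The miR-302 cluster summed to 2369 RPM with Dox and 35789 RPM without at day 4. Without the day 4 pair, or with no filter, 0 of the 16 were called for this change, and 0 of all miRNAs were. Of the 16, 3 and 7 had an unadjusted p under 0.05, where 49 of 839 and 88 of 1099 miRNAs did. Against day 0, limma called 0 of the 16 at day 1. Of these, 2 had an unadjusted p under 0.05, where 168 of all 839 miRNAs did. Limma-voom called 1 of the 16 lower at day 1 (miR-295-3p), where it called 8 of all 839 lower. At day 2, 3 of the 16 rose (miR-20b-5p, miR-106a-5p and miR-106b-5p), where 15.3% of all miRNAs rose. At day 4, 3 of the 16 rose and 3 fell, where 21.9% of all miRNAs rose and 3.81% fell. Those that fell were miR-291a-3p, miR-294-3p and miR-295-3p of the miR-290 cluster, and miR-302a-3p, miR-302c-3p and miR-20b-5p rose. In limma-voom 1 of the 16 rose and 3 fell at day 4, where 174 and 30 of all 839 miRNAs did. With median-of-ratios scaling 1 rose (miR-20b-5p) and 6 fell at day 4, where 12% and 7.27% of all miRNAs did. Under that scaling 1 rose and 2 fell at day 2, where 6.08% of all miRNAs rose and 6.08% fell. At day 1 it gave 2 lower, where 4.05% of all miRNAs were lower. With no filter 0 of the 16 were called at these days.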

How the data were processed

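Per the labels' protocols, total RNA was extracted with TRIzol and made into libraries with the NEBNext kit for small RNA. The deposited values are scores: whole numbers that sum to between 999965 and 1000047 per library, read as rounded RPM. The submitters' processing notes name Bowtie and mm10 without versions. How reads were counted, against which annotation, and what was done with multiply matching reads is not stated in those sources. A total line, 1 row without values, was dropped from the deposited table.

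For each library a read total between 200000 and 700000 was sought for which every value is a whole number of reads within 0.5 RPM and the reads sum to the total, and 1 total was found. miRNAs that reached 1 in 2 or more libraries were tested (839, all 9 family rows among them). limma 3.58.1 in R 4.3.3 was run on log2(value + 1) (mean-variance trend, robust prior variance), with treatment and day as a factor, over all 8 libraries. p-values were Benjamini-Hochberg adjusted over 839 miRNAs at a threshold of 0.05. A changing Dox effect was tested as treatment by day as a number. The 3 residual degrees of freedom (2 for the changing effect) measure how effects vary between days or treatments. The spread of most miRNAs came from the trend over all miRNAs. Separate cultures are not named in the labels, and p-values then measure only the spread among these libraries, which may be technical. Named miRNAs were every family row, its seed relatives, the most alike miRNA of each member with a mean of at least 100 RPM, and the G1 to S lists. The members and lists were chosen with earlier results of these data known. Hosts were read from GENCODE M21.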

Additional observations from a re-analysis of the deposited data

How the results depend on the processing

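Each result was recomputed with other scalings, pseudocounts, filters, variance priors, limma-voom, and without each day pair or library. Of 688 values of single family rows under these alternatives, 640 kept their direction and their side of the threshold.

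No family row was called for Dox, or for a changing Dox effect, under any alternative. The count of family rows called against day 0, 1 at each day, was 2 at each day with median-of-ratios scaling and 2 at day 4 outside the miR-290 cluster, 0 at each day with no filter, and 0 to 1 at each day with 1 library left out. Without the day term as a block 0 rows were called for Dox, and without the treatment term as a block 1 row was called at each day, so dropping the block changed no call of a family row.

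The background counts moved more. For Dox, 16 of all miRNAs were called, against 0 without the block, with no filter or without the robust option, and 1 to 10 with 1 day pair left out. For the changing Dox effect 8 were called, against 0 with no filter, without the robust option or with days 2 and 4 set against days 0 and 1, and 0 to 12 with 1 pair left out. At days 1, 2 and 4 the counts were 68, 145 and 216, against 1, 1 and 30 with no filter, 13, 72 and 157 without the robust option and 44, 93 and 174 without the block. With 1 library left out they were 7 to 108, 1 to 191 and 118 to 218.

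No value that changed sign was called in either direction. For Dox, miR-16-2-3p was -0.11 in limma-voom. With 1 day pair left out the ranges were -0.088 to 0.48 for miR-15a-3p, -0.091 to 0.15 for miR-15a-5p, -0.26 to 0.026 for miR-16-1-3p, -0.17 to 0.57 for miR-16-2-3p, -0.43 to 0.17 for miR-195a-3p and -0.087 to 0.27 for miR-195a-5p. For the changing Dox effect, miR-15a-5p was 0.037 outside the miR-290 cluster. With days 2 and 4 set against days 0 and 1 the values were 0.044 for miR-15a-5p, -0.076 for miR-195a-5p and -0.080 for miR-16-5p. With 1 pair left out the ranges were -0.17 to 0.12 for miR-15a-5p, -0.16 to 0.014 for miR-15b-5p, -0.34 to 0.19 for miR-16-5p, -0.90 to 0.070 for miR-195a-3p and -0.20 to 0.17 for miR-195a-5p.

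With median-of-ratios scaling, miR-195a-5p was -0.22 and miR-15b-5p -0.27 at day 1, and miR-15b-5p -0.55 and miR-15b-3p -0.43 at day 4. Outside the miR-290 cluster the day 4 values were -0.45 and -0.33. In limma-voom miR-15a-5p was 0.0016 at day 2. With 1 library left out the ranges were -0.020 to 0.23 for miR-15b-5p and -0.012 to 0.32 for miR-195a-5p at day 1, -0.23 to 0.23 for miR-15a-5p and -0.27 to 0.22 for miR-16-5p at day 2, and -0.20 to 0.53 for miR-15b-3p, -0.22 to 0.32 for miR-15b-5p and -0.30 to 0.19 for miR-16-5p at day 4. The causes were not tested. Depth limits the 3 lowest members: 3 reads equal 5.54 to 8.28 RPM, and miR-16-2-3p, miR-15a-3p and miR-195a-3p had 1 to 14 reads in a library.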
